A study of Mus musculus with 30 samples.

Results

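The genes described here encode the constitutive subunits of the proteasome, the protease that degrades ubiquitin-tagged proteins. They were chosen by symbol alone, as every gene named Psma, Psmb, Psmc or Psmd with a number, without the interferon-induced catalytic subunits Psmb8, Psmb9 and Psmb10, which gave 34 of the 18975 genes of the table. RNA was sequenced from 30 tumors of B16F10 cells, a mouse melanoma line grown under the skin of female C57BL/6 mice. Heterozygous ARE-del hosts (HET) gave 3 libraries after anti-PD1, 4 after an agonist antibody to CD40, 4 after both antibodies (the combination) and 4 after control rat IgG2A (IgG). Wild type hosts (WT), labelled ARE-del +/+, gave 4, 3, 3 and 5 libraries in the same order of treatments. ARE-del removes an AU-rich element, a sequence that shortens the life of an mRNA, from the transcript of Ifng, the gene of interferon-gamma. The injected tumor cells were the same in all groups and carry no ARE-del allele, so the genotype is that of the host cells within a tumor. Treatment began after 7 days of growth and was given 2 times a week, per the labels.

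The proteasome joins a barrel, the core particle, to a cap, the regulatory particle. In the core, outer rings of alpha subunits gate the entry to inner rings of beta subunits, of which Psmb5, Psmb6 and Psmb7 cut the protein chain. The cap's base holds a ring of ATPases that unfolds the substrate, and its lid removes the ubiquitin chain. Interferon-gamma exchanges the catalytic beta subunits for Psmb8, Psmb9 and Psmb10, which favours peptides that fit class I MHC, while the other subunits are shared by both forms. When proteasomes are inhibited, cells raise most subunit genes together through the factor Nfe2l1 (also called Nrf1), which binds antioxidant response elements.

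The 34 genes fell into 7 alpha ring subunits (Psma1 to Psma7), 7 beta ring subunits (Psmb1 to Psmb7), 6 ATPases of the base (Psmc1 to Psmc6), 3 base subunits that are not ATPases (Psmd1, Psmd2 and Psmd4), 8 lid subunits (Psmd3, Psmd6, Psmd7, Psmd8, Psmd11, Psmd12, Psmd13 and Psmd14) and 3 chaperones of base assembly that share the Psmd name (Psmd5, Psmd9 and Psmd10). The testis subunit Psma8 and the thymus subunit Psmb11 are not analysed here. All 34 passed the filter on low values, which kept 15002 genes, and the lowest count of any of them in any library was 374 reads, for Psmd10. In GENCODE vM21 (mm10), Psmb5 lies on chromosome 14 from 54614119 to 54618022 with 3 exons, Psmb6 on chromosome 11 from 70525367 to 70527858 with 6 exons and Psmb7 on chromosome 2 from 38588036 to 38644087 with 8 exons. Exons of Psmb7 shared 405 bases with Nek6 on the opposite strand, those of Psmd13 shared 342 bases with Sirt3, 25.5% of the exon bases of Psmd9 lay over Gm26745, and 12.1% of those of Psmb5 lay over Mir686 on the same strand. Strand was not stated, so reads over these stretches cannot be told apart. Pseudogenes of Psmb5, Psmb6 and Psmb7 are annotated, and the one with values here, Psmb6-ps2, had 0 to 11 reads.

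Libraries held 17612565 to 35996574 reads, and nothing in the labels says that replicates of a group were separate animals, so a p-value may measure technical spread only. All 12 melanocyte markers were read in every library, with Pmel between 5671 and 23391 CPM. CPM are counts per 1000000 of the effective library size, the normalized total of reads in a library. The gene-level values do not cover the ARE-del deletion and gave no check of the genotype. In bulk tumors, fewer cells of a type and less RNA per cell cannot be told apart. Sample descriptions carry an L number from 5 to 8 whose meaning is not given. WT IgG libraries all had L5, HET combination libraries all L8, and WT anti-CD40 and WT combination libraries all L6.

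The promoters of 4 subunits are printed as examples. They are 2 catalytic subunits and a lid subunit, picked for a letter match to the antioxidant response element core, and Psmd11, whose level varied least. RefSeq windows of 250 bases before to 50 bases after the annotated start (GRCm38.p6) were found for 28 of the 34 genes, in 30 windows. The capitals TGACNNNGC, read on either strand, mark the core of the antioxidant response element, and the capitals CCGGAAG (or CTTCCGG on the printed strand) mark a core bound by ETS factors. The windows are Psmb5, chr14:54617946-54618245 on the minus strand, with the antioxidant element 47 bases before the start; Psmb6, chr11:70525107-70525406 on the plus strand, with it 9 bases before the start; Psmd12, chr11:107479278-107479577 on the plus strand, with it 247 bases and the ETS core 17 bases before the start; and Psmd11, chr11:80428365-80428664 on the plus strand, with the ETS core 11 bases before the start.
Psmb5: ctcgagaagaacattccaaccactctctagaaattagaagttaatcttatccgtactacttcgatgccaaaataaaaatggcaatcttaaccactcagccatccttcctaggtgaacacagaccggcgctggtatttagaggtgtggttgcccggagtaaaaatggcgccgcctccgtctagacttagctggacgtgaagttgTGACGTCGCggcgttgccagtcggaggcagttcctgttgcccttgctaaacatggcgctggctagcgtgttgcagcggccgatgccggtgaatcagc
Psmb6: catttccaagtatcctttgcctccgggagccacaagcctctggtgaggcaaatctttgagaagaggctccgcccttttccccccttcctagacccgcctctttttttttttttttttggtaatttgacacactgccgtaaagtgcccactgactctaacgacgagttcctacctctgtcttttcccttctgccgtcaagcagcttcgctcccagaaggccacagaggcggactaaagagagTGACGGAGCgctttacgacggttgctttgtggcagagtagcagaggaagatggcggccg
Psmd12: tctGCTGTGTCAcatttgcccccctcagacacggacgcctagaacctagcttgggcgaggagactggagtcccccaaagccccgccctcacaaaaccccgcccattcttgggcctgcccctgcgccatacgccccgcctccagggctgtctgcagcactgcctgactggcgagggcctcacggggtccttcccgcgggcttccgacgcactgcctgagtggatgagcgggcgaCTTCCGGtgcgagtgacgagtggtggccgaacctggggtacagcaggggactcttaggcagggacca
Psmd11: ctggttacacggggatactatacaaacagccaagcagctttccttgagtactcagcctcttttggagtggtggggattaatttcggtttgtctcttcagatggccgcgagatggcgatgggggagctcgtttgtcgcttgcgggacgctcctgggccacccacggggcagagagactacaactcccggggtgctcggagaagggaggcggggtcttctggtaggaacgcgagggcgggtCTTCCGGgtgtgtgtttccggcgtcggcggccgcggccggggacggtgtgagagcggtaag

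The antioxidant response element core stood in 5 of the 30 windows (Psmb5, Psmb6, Psmc6, Psmd9 and Psmd12), which is 16.7%, against 14.2% of the windows of all genes that passed the filter and 12.4% of all 32851 windows. The ETS core stood in 11 windows of 10 genes (Psma6, Psmc1, Psmc2, Psmc6, Psmd2, Psmd4, Psmd6, Psmd11, Psmd12 and Psmd13), which is 36.7% against 16.3% and 8.9%. CCAAT, the box bound by NF-Y, stood in 36.7% of the windows, against 37.4% of the windows of filtered genes. The GC box GGGCGG stood in 60%, against 60.7%. The core of the interferon-stimulated response element stood in 3 windows (Psmb3, Psmd4 and Psmd9), 10% against 3.09%. A match describes letters in a window and was not taken as a binding site.

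Levels per length differed widely between subunits of the same complex. Per kilobase of all annotated exon bases, and as a mean ± SD over 30 libraries, the ATPase Psmc5 was highest at 168 ± 49.6 CPM per kilobase. The lid subunit Psmd8 had 137 ± 48.3, the beta subunit Psmb4 133 ± 46.1 and the alpha subunit Psma6 133 ± 41.0 CPM per kilobase. At the other end stood the assembly chaperones Psmd9 with 5.98 ± 1.40, Psmd5 with 7.84 ± 0.769 and Psmd10 with 17.8 ± 3.69 CPM per kilobase, which do not stay in the finished particle.

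By role, the median level was 93.6 CPM per kilobase for the ATPases, 80.4 for the beta ring, 61.1 for the base subunits without ATPase activity, 58.6 for the alpha ring, 42.0 for the lid and 7.84 for the chaperones. Psmc2 was the lowest ATPase at 35.2 CPM per kilobase, Psmb1 the lowest beta subunit at 44.6, Psma2 the lowest alpha subunit at 35.8, Psmd1 the lowest of the base subunits that are not ATPases at 24.4 and Psmd11 the lowest of the lid at 20.9. Of the 3 base subunits that are not ATPases, Psmd2, a scaffold that receives ubiquitin carriers, was highest at 94.1 CPM per kilobase. Of the 33 pairs of neighbours in this order, 9 differed by more than the SD of their gap over libraries, and 24 did not, among them Psmb4 and Psma6. The widest gap separated Psmd10 from Psmd5, by 1.17 on the log2 scale in all 30 libraries. With the length of the longest coding transcript in place of the exon union, the beta ring had the highest median, 166 CPM per kilobase, and the ATPases 137, so the order of these roles rested on the length used. The order of single subunits did as well. With that length Psmb4 was highest at 219 CPM per kilobase, and Psmc5 had 178. Psmc6 was then the lowest ATPase at 57.7, Psmb5 the lowest beta subunit at 96.9 and Psmd5 the lowest chaperone at 12.9. Psmd10 had 18.3 and Psmd9 16.7.

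**Figure D1:**
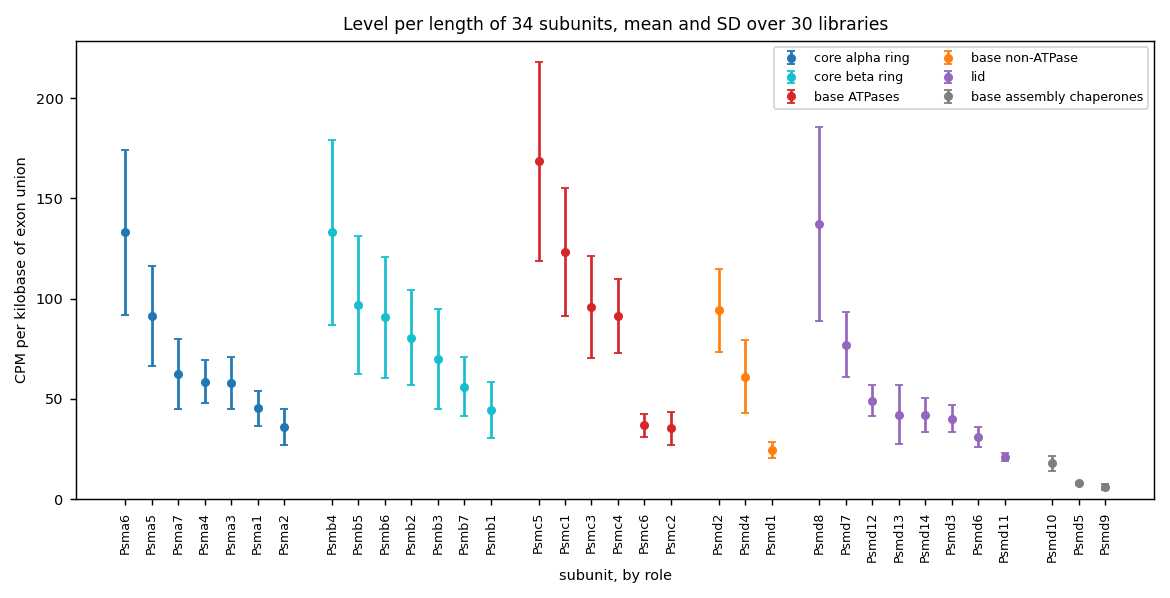
Mean level per kilobase of exon union (CPM per kilobase, vertical axis) of each of the 34 subunits over 30 libraries, grouped by role along the horizontal axis, with bars of 1 SD. Psmc5 stands highest at 168 CPM per kilobase and the 3 assembly chaperones stand lowest, between 5.98 and 17.8.

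The subunits moved up and down together from library to library. The SD of a subunit's log2 value over the 30 libraries had a median of 0.32, and of 0.13 once the mean of the 34 subunits in each library was taken away. The 6612 other filtered genes within the same range of mean level had a median SD of 0.29. Taking away a library mean was not done for other genes, and short genes at these levels moved much alike in several libraries, as given below. The beta ring varied most, with a median SD of 0.41, then the alpha ring with 0.34, the ATPases with 0.32, the base subunits without ATPase activity with 0.30, the chaperones with 0.28 and the lid with 0.26.

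Psmb3, a beta subunit without a catalytic site, spanned 104 to 335 CPM, a 3.21-fold range, and Psmb5, the chymotrypsin-like catalytic subunit, 58.7 to 175 CPM, a 2.98-fold range. The range was 2.77-fold for Psmb6, the caspase-like catalytic subunit, and 2.51-fold for Psmb7, the trypsin-like one. In the ATPase ring Psmc4 spanned 150.1 to 314 CPM and Psmc5 169 to 451 CPM. Psmd8 had the widest range of all, 252 to 1043 CPM or 4.14-fold, and HET IgG replicate 2 and HET IgG replicate 4, libraries of the same group, were its ends.

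Psmd11, a lid subunit, was the steadiest, at 105 to 157 CPM, a 1.5-fold range. Its SD was 0.13, and 0.28 after the mean of all subunits was taken away, so it did not follow the others. Psmd1, a scaffold of the base, likewise had an SD of 0.26 before and 0.35 after that step. The chaperone Psmd5 had 0.14 before and 0.20 after. Among the ATPases, Psmc6 had 0.23 and 0.21, while the other 5 ATPases dropped to between 0.06 and 0.10.

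**Figure D2:**
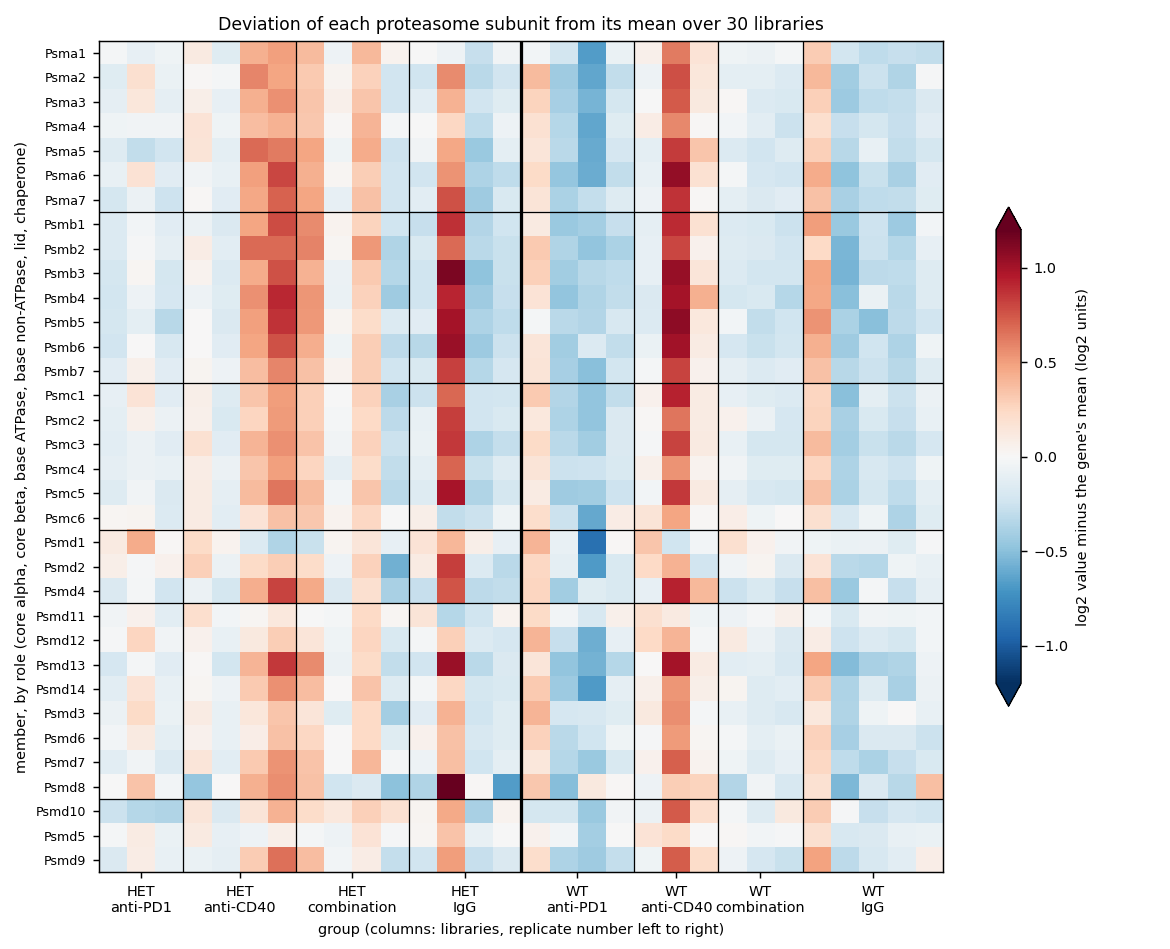
Log2 value of each subunit (rows, by role) minus its mean over 30 libraries, in every library (columns, by group), in color from blue (lower) to red (higher). WT anti-CD40 replicate 2, HET IgG replicate 2 and HET anti-CD40 replicate 4 are red in nearly all rows, WT anti-PD1 replicate 3 is blue, and the rows of Psmd11 and Psmd1 do not follow the rest.

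The shared movement was widest in a few libraries, and they did not fall in 1 group. The mean log2 value of the 34 subunits was highest in WT anti-CD40 replicate 2 (7.87), HET IgG replicate 2 (7.78), replicates 4 and 3 of HET anti-CD40 (7.71 and 7.52), HET combination replicate 1 (7.51) and WT IgG replicate 1 (7.48). It was lowest in WT anti-PD1 replicate 3 (6.75) and WT IgG replicate 2 (6.82). HET IgG replicate 2 held 21849047 reads but had an effective library size of 16767814, and 1554 genes without a read, the most of any library. In HET IgG replicate 3 the reads and the size were 22390038 and 22025974. A smaller effective size raises every value of a library, and its part in the subunit levels of HET IgG replicate 2 was not tested. Of the 34 genes, 20 had their highest value in WT anti-CD40 replicate 2 and 11 in HET IgG replicate 2, while 19 had their lowest in WT anti-PD1 replicate 3 and 7 in WT IgG replicate 2. The alpha and beta rings stood above the regulatory particle, as a difference of mean log2 values, by 0.35 and 0.33 for replicates 3 and 4 of HET anti-CD40, 0.39 for replicate 2 of WT anti-CD40 and 0.22 for HET IgG replicate 2. This did not hold in every library with high subunits: WT anti-PD1 replicate 1, with a mean of 7.39 and 31 of 34 subunits above their own mean, had a difference of 0.04, and HET anti-CD40 replicate 1, with 28 above, had 0.05.

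Other measures of the libraries moved with the subunits. Genes with short transcripts (under 1500 bases, 3091 genes) stood above genes with long ones (over 4000 bases, 4649 genes), as medians of deviations from each gene's mean, by 1.24 in WT anti-CD40 replicate 2, 1.04 in replicate 4 of HET anti-CD40 and 0.74 in both HET IgG replicate 2 and HET combination replicate 1, while the difference was -0.45 in WT IgG replicate 2. WT anti-PD1 replicate 3, lowest for the subunits, stood at 0.14 and did not follow this. The 756 short-transcript genes within the subunits' range of level had a median deviation of 0.67 in WT anti-CD40 replicate 2, where the subunits' mean deviation was 0.68. These values were 0.63 and 0.59 in HET IgG replicate 2 and 0.55 and 0.53 in HET anti-CD40 replicate 4. They differed more in WT anti-PD1 replicate 1 (-0.00 and 0.20) and WT anti-PD1 replicate 3 (-0.01 and -0.44). Taking out a trend on transcript length in each library lowered the median SD of the subunits to 0.22 from the 0.32 given above. Across the 34 genes the SD and the transcript length had a Spearman coefficient of -0.47, and the SD and the GC content one of 0.52, a description over genes that share libraries. Psmb5 has 899 bases in its longest coding transcript, Psmb6 798 and Psmb3 766, against 2848 for Psmd11 and 3112 for Psmd1.

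Keratinocyte markers, 18 of 18 measured, had a mean log2 value of 4.82 and 4.59 in replicates 4 and 3 of HET anti-CD40, 3.58 in HET combination replicate 1 and 5.87 in WT anti-CD40 replicate 2, but -0.52 in HET IgG replicate 2. By group their lowest and highest values were -2.30 and -0.40 in HET anti-PD1, -2.08 and 4.82 in HET anti-CD40, -1.98 and 3.58 in HET combination, -2.48 and -0.52 in HET IgG, -2.53 and 0.83 in WT anti-PD1, -1.64 and 5.87 in WT anti-CD40, -2.39 and -2.14 in WT combination and -2.51 and 3.36 in WT IgG. Krt5 had no read in 9 of the 30 libraries and Krt14 none in 8. Skeletal muscle markers, also 18 of 18, ran from 1.40 to 4.93 in HET anti-CD40 and 2.17 to 4.21 in HET combination, against -1.39 to 4.21 in HET IgG. Macrophage markers, 9 of 10 measured, ran from 3.69 to 5.18 in HET anti-CD40 and 3.54 to 5.46 in HET combination, against 2.71 to 3.62 in HET IgG, and from 1.83 to 4.43 in WT anti-CD40, against 1.06 to 4.55 in WT IgG. T cell markers, 10 of 10, ran from -0.81 to 1.74 in HET anti-CD40 and -0.79 to 0.85 in HET combination, against -2.08 to -1.26 in HET IgG, and from -1.68 to 0.35 in WT anti-CD40, against -2.28 to -1.19 in WT IgG. Cd3e had no read in 5 libraries and Cd163 none in 2. Mitochondrially encoded genes took 6.53% of reads in HET IgG replicate 2, against 1.64% to 2.61% in the other HET IgG libraries, and 0.73% in WT anti-CD40 replicate 2. The part of tissue content, transcript length and mitochondrial reads in the levels of the subunits was not tested.

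**Figure D3:**
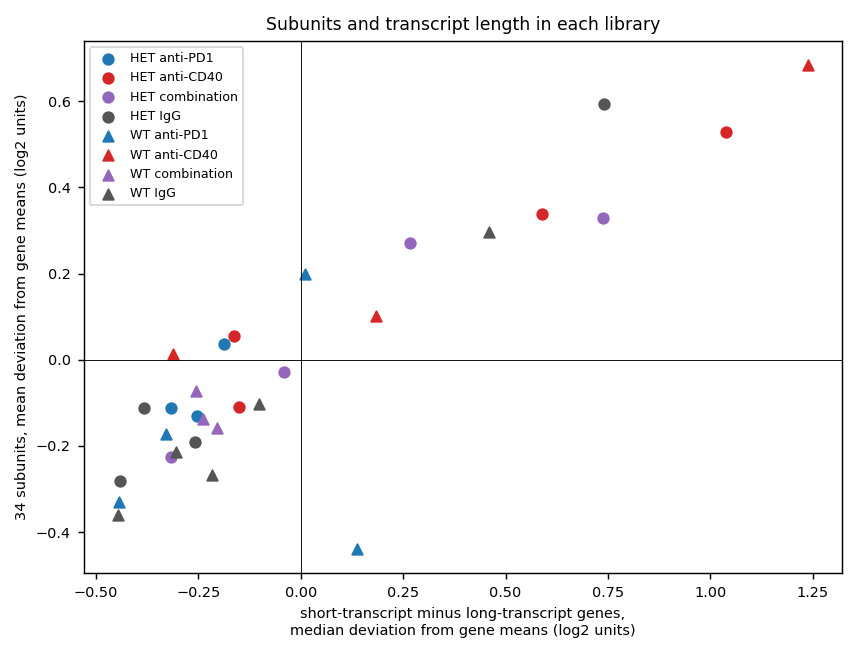
Each point is a library, with HET libraries as circles and WT libraries as triangles, colored by treatment. The horizontal axis gives the short-transcript minus long-transcript difference and the vertical axis the mean deviation of the 34 subunits, both in log2 units. WT anti-CD40 replicate 2 lies at the upper right (1.24 and 0.68), and WT anti-PD1 replicate 3 lies apart at 0.14 and -0.44.

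No subunit passed the test in any of 13 comparisons. These were the 6 antibody effects relative to IgG, the 4 genotype effects and the 3 differences between hosts in an antibody effect. The test was limma's moderated test on the log2 values of all 30 libraries, with Benjamini-Hochberg adjusted p-values over 15002 genes and a threshold of 0.05. It called 0% of all genes in each of the 13 comparisons as well, and so did voom on recovered reads. Without adjustment, 8 subunits had a two-sided p under 0.05 in WT anti-CD40 against WT IgG, and 0 in the other 12 comparisons. The lowest adjusted p of any subunit was 0.357, for Psma1 in HET anti-CD40 against HET IgG. In 9 of the 10 pairs of groups 0 subunits had every library of the first group above, or every one below, all libraries of the second. The shares of all genes that stood wholly above and wholly below were 0.3% and 0.273% in WT anti-PD1, 0.693% and 1.04% in WT anti-CD40 and 0.54% and 0.92% in WT combination against WT IgG. They were 0.953% and 1.03% in HET anti-PD1, 3.23% and 1.88% in HET anti-CD40 and 3.63% and 1.4% in HET combination against HET IgG. They were 0.153% and 0.267% in HET against WT hosts with IgG, 2.92% and 2.12% with anti-PD1 and 2.36% and 1.54% with anti-CD40.

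With all libraries included, the median of the 34 subunits differed most in WT anti-CD40 against WT IgG. All 34 subunits stood higher in WT anti-CD40 than in WT IgG tumors, against 48.5% of all genes tested, with a median log2 difference of 0.43 against -0.01 for all genes. The median was 0.46 for the core and 0.33 for the regulatory particle. Psmb5 had 74.1, 175 and 90.4 CPM in WT anti-CD40 tumors, against 121, 63.7, 58.7, 66.7 and 71.0 CPM in WT IgG tumors, a log2 difference of 0.52 ± 0.29 (SE, limma adjusted p = 0.621). Psmb6 had 154, 326 and 174 CPM in WT anti-CD40 tumors, against 218, 120, 137, 125 and 157 CPM in WT IgG tumors, a difference of 0.48 ± 0.28. In both genes WT anti-CD40 replicate 2 alone lay above every WT IgG library, and the other 2 WT anti-CD40 libraries lay within the WT IgG range.

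The alpha subunits with an unadjusted p under 0.05 were Psma1, Psma3, Psma4, Psma5 and Psma6, joined by the ATPase Psmc1, the lid subunit Psmd7 and the chaperone Psmd10, where 5.18% of all genes had such a p. Psma6 differed most among all 34, by 0.55 ± 0.26 (limma adjusted p = 0.621), with 149, 328 and 179 CPM in WT anti-CD40 tumors, against 216, 113, 131, 121 and 144 CPM in WT IgG tumors. Psma4 had 145, 203 and 138 CPM in WT anti-CD40 tumors, against 157, 113, 118, 113 and 125 CPM in WT IgG tumors, a difference of 0.36 ± 0.17. The lid subunit Psmd13 was next to Psma6 at 0.54 ± 0.29. Psmd1 and Psmd11 differed least, by 0.09 ± 0.20 and 0.15 ± 0.12, and Psmd11 had 152, 143 and 128 CPM in WT anti-CD40 tumors, against 131, 117, 129, 128 and 130 CPM in WT IgG tumors.

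Single libraries moved these values. Without WT anti-CD40 replicate 2 the median difference was 0.19 and 0 subunits had an unadjusted p under 0.05. That number was 23 without WT anti-CD40 replicate 1, 28 without WT IgG replicate 1, 2 without WT IgG replicate 2, 3 or 4, and 3 without WT IgG replicate 5. The share of all genes with such a p in these fits was not set beside the numbers, so they cannot be read as particular to the subunits. With the length trend taken out the median was 0.27, and with keratinocyte and muscle scores as covariates it was 0.11 with 0 such p-values. WT anti-CD40 and WT IgG libraries share no L number, so antibody and L number cannot be told apart.

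In HET hosts, 32 of the 34 subunits stood higher in anti-CD40 than in IgG tumors, against 49.3% of all genes, with a median log2 difference of 0.23. Unadjusted p-values under 0.05 went to 0 subunits and to 14.9% of all genes. The macrophage score (3.69 to 5.18 in HET anti-CD40, against 2.71 to 3.62 in HET IgG) and the T cell score (-0.81 to 1.74, against -2.08 to -1.26) did not overlap between these groups. Nor did the score of 8 adipocyte markers (-0.91 to 2.03, against -1.32 to -1.09). The part of these scores in the difference was not tested. Psma6 and Psma5 differed most, by 0.38 ± 0.25 and 0.37 ± 0.22 (SE), and the base scaffold Psmd1 and the chaperone Psmd5 were lower, at -0.20 ± 0.19 and -0.06 ± 0.12. Psmb7 had 192, 179, 241 and 280 CPM in HET anti-CD40 tumors, against 165, 330, 147 and 162 CPM in HET IgG tumors, a difference of 0.21 ± 0.22 (limma adjusted p = 0.65). Psmd14, the lid enzyme that removes ubiquitin, had 118, 111, 145 and 170.1 CPM in HET anti-CD40 tumors, against 114, 138, 101 and 103 CPM in HET IgG tumors, a difference of 0.25 ± 0.19. HET IgG replicate 2 was above all HET anti-CD40 libraries for Psmb7 and within their range for Psmd14. Without that library the median of the 34 was 0.42. With keratinocyte and muscle scores as covariates it was -0.13, the other direction. It was 0.09 without HET anti-CD40 replicate 4, 0.11 without HET IgG replicate 3 and 0.15 without HET IgG replicate 4. Within L7, which holds 3 and 2 libraries of these groups, it was -0.08, with 12 of 34 subunits higher. HET IgG replicate 2 is 1 of the 2 IgG libraries of L7, beside HET IgG replicate 3.

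With the combination in HET hosts 27 of 34 subunits stood higher than with IgG, against 49.6% of all genes, with a median of 0.09, and 0 had an unadjusted p under 0.05, against 9.81% of all genes. All 14 core subunits were among the 27. Psmc6 and Psma1 were highest, at 0.29 ± 0.16 and 0.28 ± 0.17 (SE, limma adjusted p = 0.557 and 0.589), and Psmd8 and Psmd1 lowest, at -0.23 ± 0.30 and -0.18 ± 0.19. Psmc6 had 160, 131, 151 and 127 CPM in HET combination tumors, against 134, 104, 106 and 123 CPM in HET IgG tumors. The lowest 2 combination libraries lay within the IgG range. Psmd8 had 512, 341, 356 and 285 CPM in HET combination tumors, against 312, 1043, 406 and 252 CPM in HET IgG tumors, and its difference was 0.20 without HET IgG replicate 2. The median of the 34 was 0.31 without that library, with 33 higher, and ran from -0.03 (without HET IgG replicate 3, 15 higher) to 0.19 (without HET combination replicate 4) over the other 7 libraries. With keratinocyte and muscle scores as covariates it was -0.27. No L number held 2 libraries of each group.

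In WT hosts the subunits stood near the level of IgG with the combination. Of the 34, 20 were higher, against 49.8% of all genes, with a median of 0.01 that ran from -0.05 without WT IgG replicate 2 (11 higher) to 0.13 without WT IgG replicate 1 (30 higher), and 0 had an unadjusted p under 0.05, against 0.413% of all genes. Psmd1 and Psmc6 were highest, at 0.14 ± 0.20 and 0.13 ± 0.16 (SE), and Psmd9 and Psmd4 lowest, at -0.16 ± 0.22 and -0.14 ± 0.26. Psmd4, a ubiquitin receptor of the base, had 138, 146 and 137 CPM in WT combination tumors, against 212, 121, 163, 137 and 154 CPM in WT IgG tumors. The WT combination libraries were close to each other, and all 3 lay within the range of WT IgG. The 3 L6 combination libraries share no L number with WT IgG.

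With anti-PD1 the subunits stood slightly below IgG in both hosts. In WT hosts 4 of 34 were higher than with IgG, against 45.3% of all genes, with a median of -0.05 and, within L5, -0.06. None of the 34 had an unadjusted p under 0.05, against 2.75% of all genes. The lid subunits Psmd8 and Psmd11 were highest, at 0.09 ± 0.29 and 0.08 ± 0.11 (SE), and the chaperones Psmd9 and Psmd10 lowest, at -0.20 ± 0.20 and -0.14 ± 0.16. Psma7, an alpha subunit, had 207, 143, 152 and 166 CPM in WT anti-PD1 tumors, against 237, 142, 151, 152 and 168 CPM in WT IgG tumors. All 4 WT anti-PD1 libraries lay within the WT IgG range. The median was 0.03 without WT anti-PD1 replicate 3 (21 higher), 0.04 without WT IgG replicate 1 (29 higher) and -0.20 without WT anti-PD1 replicate 1 (1 higher).

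In HET hosts 10 of 34 subunits were higher with anti-PD1 than with IgG, against 52.3% of all genes, with a median of -0.07, and 0 had an unadjusted p under 0.05, against 0.96% of all genes. Psmc6 and Psmd12 were highest, at 0.10 ± 0.17 and 0.09 ± 0.18 (SE), and Psmd10 and Psmb5 lowest, at -0.36 ± 0.19 and -0.27 ± 0.30. Psmb5 had 71.7, 76.4 and 65.9 CPM in HET anti-PD1 tumors, against 75.7, 166, 64.4 and 67.4 CPM in HET IgG tumors. All 3 HET anti-PD1 libraries lay within the HET IgG range. The median was 0.14 without HET IgG replicate 2, with 31 higher, and 0.05 with library weights, both in the other direction. It was -0.26 within L7, where the IgG libraries are HET IgG replicates 2 and 3.

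**Figure D4:**
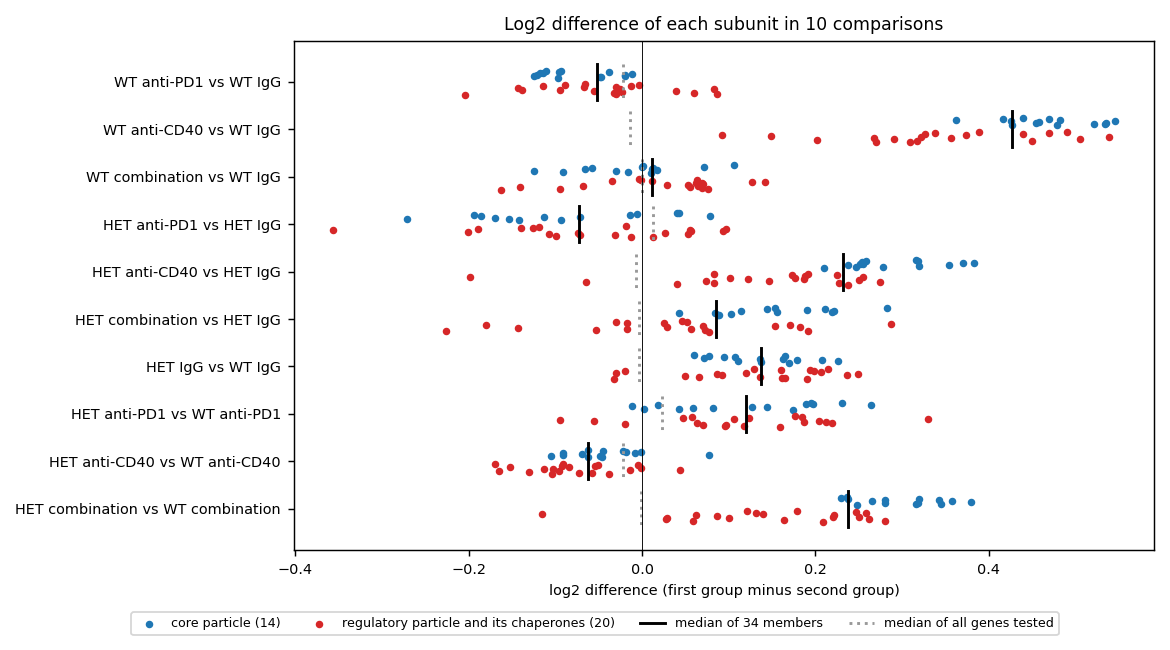
Log2 difference of each subunit (horizontal axis, first group minus second group) in 10 comparisons (rows), with core subunits in blue, regulatory particle subunits and their chaperones in red, the median of the 34 as a black bar and the median of all genes tested as a dotted grey bar. In WT anti-CD40 against WT IgG all points lie right of 0, with the core to the right of most of the regulatory particle.

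Between genotypes, the subunits stood slightly higher in HET than in WT tumors under 3 of 4 treatments. With IgG 31 of 34 were higher in HET hosts, against 49.2% of all genes, with a median of 0.14. With anti-PD1 the number was 30, against 54% of all genes, with a median of 0.12. With the combination it was 33, against 49.9% of all genes, with a median of 0.24. With anti-CD40 it was 2, against 44.8% of all genes, with a median of -0.06. At an unadjusted p under 0.05 stood 0 subunits in each, against 2.07%, 2.14%, 5.56% and 3.83% of all genes for IgG, anti-PD1, the combination and anti-CD40.

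With IgG, Psmd13 and Psmd2 had the highest differences between genotypes, at 0.25 ± 0.27 and 0.24 ± 0.21 (SE), and Psmd9 and Psmd11 the lowest, at -0.03 ± 0.20 and -0.03 ± 0.11. Psmd2 had 399, 659.7, 331 and 298 CPM in HET IgG tumors, against 418, 298, 293, 358 and 351 CPM in WT IgG tumors, and HET IgG replicate 2 alone lay above the WT range. Without that library the median of the 34 was -0.07, with 9 higher, and it was 0.26 without WT IgG replicate 1, 0.23 without HET IgG replicate 3 and 0.09 without WT IgG replicate 2. With anti-PD1, Psmd1 and Psma6 were highest, at 0.33 ± 0.20 and 0.26 ± 0.27, and Psmd10 and Psmd11 lowest, at -0.09 ± 0.19 and -0.06 ± 0.12. Psmd1 had 189, 237 and 177 CPM in HET anti-PD1 tumors, against 232, 164, 94.2 and 177 CPM in WT anti-PD1 tumors, and the groups overlapped. Without WT anti-PD1 replicate 3, the library at 94.2 CPM, the median of the 34 was 0.05. That median was 0.07 and 0.08 without WT anti-PD1 replicate 2 and HET anti-PD1 replicate 2, and 0.23 without WT anti-PD1 replicate 1.

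With the combination, 3 subunits (Psma4, Psmd7 and Psmd10) were higher in every HET library than in any WT library, where 6.76% of all genes did so, and 0 were lower in every one, where 5.69% did so. Psma4 had 171, 138, 181 and 134.2 CPM in HET combination tumors, against 133.7, 125 and 114 CPM in WT combination tumors, a difference of 0.32 ± 0.18 (SE, limma adjusted p = 0.823). Psmb2 and Psmb1, beta subunits without a catalytic site, were highest, at 0.38 ± 0.27 and 0.36 ± 0.28, and Psmd1 and Psmd5 lowest, at -0.12 ± 0.20 and 0.03 ± 0.13. The median ran from 0.15 without HET combination replicate 1 to 0.34 without HET combination replicate 4, was 0.13 with the length trend taken out and was -0.16 with keratinocyte and muscle scores as covariates. With anti-CD40, Psmb2 and Psmd2 were highest, at 0.08 ± 0.27 and 0.04 ± 0.23, and Psmc1 and Psmd4 lowest, at -0.17 ± 0.24 and -0.17 ± 0.27. The median of that comparison was 0.17 without WT anti-CD40 replicate 2 (31 higher), 0.06 without HET anti-CD40 replicate 2 (24 higher), -0.01 without HET anti-CD40 replicate 1, and between -0.11 and -0.19 without each of the other 4 libraries. HET and WT libraries shared no L number in any of these 4 comparisons, so genotype and L number cannot be told apart. A fit with L number among its terms gave medians for IgG, anti-PD1 and the combination of -0.0033, -0.025 and -0.0090, in the other direction and near 0. The anti-CD40 median of that fit is not given here. In it HET and WT libraries are joined only through L6, which holds 1 HET library, HET IgG replicate 1. L5 is joined to L6 only through the WT anti-PD1 group, with 1 library in L6. These medians therefore rest on single libraries and cannot separate genotype from L number.

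**Figure D5:**
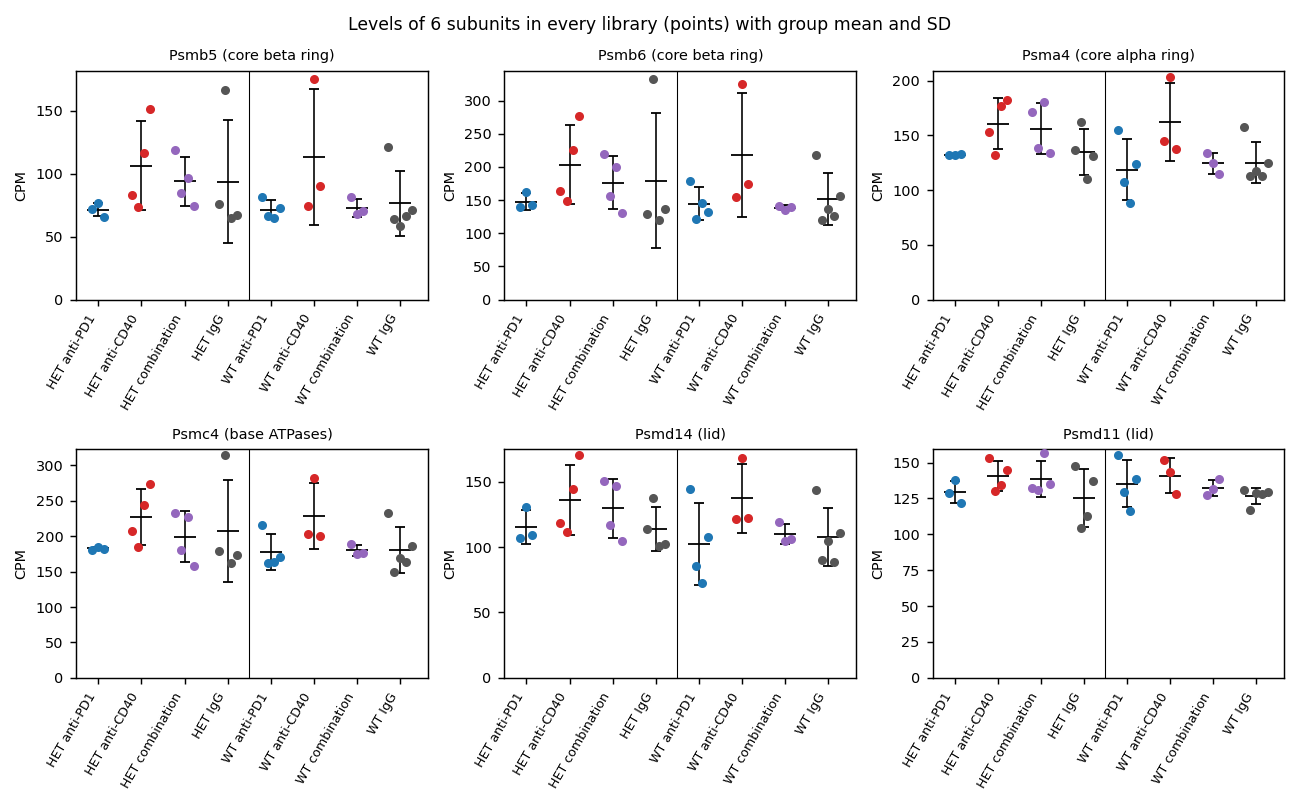
Level in CPM (vertical axis, starting at 0) of Psmb5, Psmb6, Psma4, Psmc4, Psmd14 and Psmd11 in every library (points), with the group mean and 1 SD as black bars. HET groups stand left of WT groups. A single high library sets apart HET IgG and WT anti-CD40 for Psmb5 and Psmb6, while Psmd11 stays between 105 and 157 CPM.

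The differences between genotypes in a response were tested as interactions. For anti-CD40, 33 of 34 subunits had a smaller response in HET than in WT hosts, with 1 (Psmd11) the other way, where 48.8% of all genes had a larger one, and a median of -0.21. This median was 0.04 without WT anti-CD40 replicate 2 (23 larger in HET hosts) and 0.03 without HET IgG replicate 2 (19 larger). Psmd13 and Psmc2 were lowest, at -0.35 ± 0.40 and -0.31 ± 0.30 (SE). For the combination 28 were larger in HET hosts, against 51.1% of all genes, with a median of 0.10, from Psmd1 at -0.32 ± 0.27 to Psma5 at 0.25 ± 0.32, and the median was -0.42 with keratinocyte and muscle scores as covariates, -0.01 without WT IgG replicate 1, -0.02 without HET IgG replicate 3 and 0.30 without HET IgG replicate 2. For anti-PD1 14 were larger, against 54.8% of all genes, with a median of -0.03, from Psmb5 at -0.22 ± 0.40 to Psma6 at 0.19 ± 0.36, and the median was 0.20 without HET IgG replicate 2 and 0.10 without WT anti-PD1 replicate 1. At an unadjusted p under 0.05 stood 0 subunits in each interaction, against 2.23%, 3.5% and 1.03% of all genes for anti-CD40, the combination and anti-PD1.

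The constitutive catalytic subunits can be set beside the interferon-induced ones that replace them, as shares of each pair's summed level per kilobase of longest coding transcript, in place of the exon union used above. Psmb8 made up 37.3% ± 19.6 (SD, n = 4) of the Psmb5 and Psmb8 sum in HET anti-CD40 tumors and 35.1% ± 15.9 (n = 4) in HET combination tumors, against 8.12% ± 5.35 (n = 4) in HET IgG tumors, and it was 11.5% ± 3.22 (n = 3) in HET anti-PD1 tumors. In WT hosts the share was 17.4% ± 13.4 (n = 4) with anti-PD1, 7.53% ± 2.40 (n = 3) with anti-CD40 and 10.4% ± 2.76 (n = 3) with the combination, against 9.45% ± 4.91 (n = 5) with IgG. The share in WT anti-PD1 replicate 1 (34.4%) and replicate 2 (21.3%) lay within the HET anti-CD40 range. Lowest and highest values were 20% and 65.3% in HET anti-CD40 tumors, against 4.61% and 16.0% in HET IgG tumors, which did not overlap. The macrophage, T cell and adipocyte scores, given above, did not overlap between these groups either, and their part in the share was not tested. Psmb9 made up 18.0% ± 13.7 of its pair with Psmb6 in HET anti-CD40 tumors, against 3.49% ± 2.18 in HET IgG tumors, and Psmb10 28.3% ± 12.3 of its pair with Psmb7, against 13.6% ± 3.70. The level of Psmb5 itself was 106 ± 35.3 CPM in HET anti-CD40 tumors, against 93.4 ± 48.8 CPM in HET IgG tumors, while Psmb8 had 156 ± 164 CPM, against 13.4 ± 7.29 CPM, a log2 difference of 3.12 ± 0.71 (SE, limma adjusted p = 0.162).

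Genes that build, feed or switch on the proteasome were counted beside the subunits, and 0 of them passed the test in any comparison. Of 6 core assembly and import factors, 6 were higher in WT anti-CD40 than in WT IgG tumors, against 48.5% of all genes, with a median of 0.41. In HET anti-CD40 against HET IgG tumors 6 were higher, against 49.3% of all genes, with a median of 0.28. The combination against IgG had 6 higher in HET hosts (median 0.22) and 2 in WT hosts (-0.03), against 49.6% and 49.8% of all genes. In HET against WT combination tumors 6 were higher, against 49.9% of all genes, with a median of 0.28. Pomp, which matures the core, had 106 to 243 CPM in WT anti-CD40 tumors, against 90.9 to 173 CPM in WT IgG tumors, a difference of 0.44 ± 0.25 (SE, limma adjusted p = 0.621). Of 9 measured activators, receptors and bound enzymes, 9 were higher in WT anti-CD40 tumors, against 48.5% of all genes, with a median of 0.23. In HET anti-CD40 tumors 5 of these 9 were higher, against 49.3% of all genes, with a median of 0.16. Among these Psme1 and Psme2, the interferon-induced PA28 activator, differed by 0.82 ± 0.27 and 1.02 ± 0.35 in HET anti-CD40 against HET IgG tumors, with limma adjusted p = 0.22 and 0.239. Psme2 ranged from 57.4 to 227 CPM in HET anti-CD40 tumors, against 41.5 to 97.6 CPM in HET IgG tumors.

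Genes that control proteasome transcription stood mostly lower with anti-CD40 alone and, in WT hosts, with anti-PD1, and 0 of 7 passed the test. Of these, 1 was higher in WT anti-CD40 than in WT IgG tumors, against 48.5% of all genes, with a median of -0.21. In HET hosts 0 were higher with anti-CD40 than with IgG, against 49.3% of all genes, with a median of -0.17. With anti-PD1, 2 were higher in WT hosts (median -0.21) and 4 in HET hosts (0.01), against 45.3% and 52.3% of all genes. With the combination, 4 were higher in WT hosts (median 0.01) and 3 in HET hosts (-0.01), against 49.8% and 49.6% of all genes. Genes with long transcripts had median deviations of 0.16, -0.62 and -0.07 in the WT anti-CD40 libraries. In the HET anti-CD40 libraries they had 0.08, 0.08, -0.33 and -0.52. The part of transcript length and of single libraries in the values of these 7 genes was not tested. Nfe2l1 had 154 to 238 CPM in WT anti-CD40 tumors, against 215 to 256 CPM in WT IgG tumors, a difference of -0.21 ± 0.14 (SE, limma adjusted p = 0.621). In HET anti-CD40 tumors it had 180 to 242 CPM, against 208 to 273 CPM in HET IgG tumors, a difference of -0.22 ± 0.13. WT anti-PD1 tumors had 191 to 220 CPM of Nfe2l1. Of 11 measured genes for ubiquitin, its activating enzyme and the shuttles that carry tagged proteins, 9 were higher in WT anti-CD40 tumors, against 48.5% of all genes, with a median of 0.10. In HET anti-CD40 tumors 4 were higher, against 49.3% of all genes, with a median of -0.07.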

How the data were processed

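RNA from 30 tumors was sequenced from TruSeq libraries, per the labels' protocols. The deposited log2 values are log2 CPM per gene made by the authors, with STAR, edgeR and the mm10 build named in the submitters' processing notes without versions. They take a prior count of 2, and with that prior they return whole reads (tolerance 0.01) for 100% of values in every library. A voom fit on those recovered reads was run as an alternative and called 0 genes in each comparison. Levels in CPM are these reads scaled to an effective library size of 1000000. Strandedness and the filters behind the 18975 rows are not given in the sources used here.

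A filter kept the 15002 genes that exceeded 0 on the log2 scale in 3 or more libraries. Means of the 8 groups were fitted together with limma 3.58.1 in R 4.3.3 (trend on mean level, two-sided moderated test), and p-values were adjusted by Benjamini-Hochberg over all kept genes, with a threshold of 0.05. Lengths, exons and coordinates came from GENCODE vM21, in which 18837 of the gene identifiers were found, and promoters from RefSeq (GRCm38.p6). Tables and figures were made with Python 3.11.15, pandas 2.3.3 and numpy 2.4.6. The fit was tested on simulated data.

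The members and the gene lists were chosen with earlier results of these data known. Genes named in each comparison are the 2 highest and 2 lowest subunits by log2 difference, the catalytic subunits, fixed examples of each role, the highest and lowest of each role by level, and Psmb8, Psmb9, Psmb10, Psme1, Psme2, Pomp and Nfe2l1 from the other lists. Subunits named for a low unadjusted p, for non-overlap or for their spread, and Psma6, Psmc6, Psmd7, Psmd8 and Psmd10 by library, were chosen after their values were seen. Alternatives were other filters, voom, another prior count, median-of-ratios scaling, a replicate block, the L number, tissue scores, library weights, only the compared groups, and each library left out. Values within 1 L number and trends on transcript length and GC content taken out were added after the data were seen.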

Additional observations from a re-analysis of the deposited data

Results flagged for a closer look

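In groups of 4 or 5 libraries, 7 values lay far from the rest of their group in 55 checks over 11 measures, where chance gives about 1 in 20 groups. The measures share libraries, and 5 of the 7 values are from HET IgG replicate 2, whose small effective library size is given above. Psmb5 had a log2 value of 7.38 in HET IgG replicate 2, against 6.01 to 6.24 in the other 3 HET IgG libraries. Psmb6 had 8.38 there, against 6.91 to 7.09. Psmb7 had 8.37 there, against 7.20 to 7.37. Psmc4 had 8.30 there, against 7.34 to 7.49, and Psmd4 had 8.12, against 7.06 to 7.10. In WT IgG replicate 1, Psmb5 had 6.92, against 5.88 to 6.15 in the other 4 WT IgG libraries, and Psmb7 had 7.89, against 7.21 to 7.39.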

How the results depend on the processing

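Over 285 alternatives, 0 subunits were called in any, and 0 genes in 278. Library weights, whose fit stopped before it converged, called 50 genes in HET anti-PD1, 60 in HET anti-CD40 and 407 in HET combination against HET IgG, and 23 in HET against WT combination. Leaving out 1 library gave 0 to 1 genes called in HET anti-PD1, 0 to 1 in HET anti-CD40 and 0 to 6 in HET combination against HET IgG. The within-group SD of the subunits' median, 0.33, is a spread of single libraries and not the error of a difference between groups. It was larger than every main median except that of WT anti-CD40 against WT IgG, so a median could change sign within it. In HET against WT IgG the median ran from -0.07 to 0.26 with 1 library left out. The median of the subunits moved by less than this SD in 281 alternatives. The other 4 were all with keratinocyte and muscle scores as covariates: -0.13 in HET anti-CD40 and -0.27 in HET combination against HET IgG, -0.16 in HET against WT combination and -0.42 in the combination interaction.

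Of 1140 alternatives for named subunits, 1074 kept their sign and 66 did not. The fit with the L number rests on the few libraries that join the groups, as given above. With the L number as a covariate, Psmd11 was 0.15 and Psmd13 -0.0086 in HET against WT IgG, Psmb2 -0.14 in HET against WT anti-CD40, Psmd11 0.29 in HET against WT anti-PD1, Psmd1 0.075 in HET combination against IgG, Psmb1 -0.11, Psmd1 0.17 and Psmd5 -0.022 in HET against WT combination, Psmd1 -0.11 in WT anti-CD40 and Psmc6 -0.18 and Psmd1 -0.065 in WT combination against WT IgG, Psmc6 0.33 in the anti-CD40 interaction and Psmd1 0.14 and Psmd9 -0.052 in the combination interaction. With tissue scores, Psmd9 was 0.064 in HET against WT IgG, Psma5 -0.045 and Psma6 -0.058 in HET anti-CD40 and Psma1 -0.017 in HET combination against IgG, Psmb1 -0.16, Psmb2 -0.13 and Psmd5 -0.083 in HET against WT combination, Psmd4 0.023 in WT combination against IgG, Psmd11 -0.077 in the anti-CD40 interaction, and Psma5 -0.32 and Psmd9 -0.29 in the combination interaction. With library weights, Psmd11 was 0.15 in HET against WT IgG, Psmd2 -0.11 and Psmd4 0.0014 in HET against WT anti-CD40, Psmc6 -0.11 in HET anti-PD1, Psmd8 0.19 in HET combination and -0.013 in WT anti-PD1 against IgG, and Psmd11 -0.24 in the anti-CD40 interaction. Psmd5 in HET anti-CD40 against IgG was 0.083 with the length trend and 0.10 with length and GC trends taken out.

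With 1 library left out, lowest and highest values were as follows. In HET against WT IgG they were -0.11 and 0.053 for Psmd11, -0.071 and 0.41 for Psmd13, -0.0022 and 0.38 for Psmd2 and -0.21 and 0.093 for Psmd9. In HET against WT anti-CD40 they were -0.10 and 0.35 for Psmb2, -0.32 and 0.11 for Psmc1, -0.14 and 0.18 for Psmd2 and -0.42 and 0.095 for Psmd4. In HET anti-PD1 against IgG they were -0.41 and 0.045 for Psmb5 and -0.0039 and 0.20 for Psmd12. They were -0.12 and 0.027 for Psmd5 in HET anti-CD40 and -0.48 and 0.20 for Psmd8 in HET combination against IgG, -0.12 and 0.014 for Psmd11 in HET against WT anti-PD1, -0.023 and 0.053 for Psmd5 in HET against WT combination, -0.064 and 0.22 for Psmd1 in WT anti-CD40 and -0.025 and 0.25 for Psmd8 in WT anti-PD1 against IgG. For the interactions they were -0.17 and 0.061 for Psmc6 and -0.055 and 0.11 for Psmd11 (anti-CD40), -0.40 and 0.094 for Psmb5 (anti-PD1) and -0.35 and 0.031 for Psmd2 (combination). The cause of these changes was not tested.

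Replicate numbers are not shown to pair the samples. The median correlation of the deviations of 94 same-numbered pairs was -0.02, the lowest was -0.79, and 31 were over 0.1. For 298 pairs with different numbers the median was 0.01, the lowest was -0.79, and 110 were over 0.1. With a replicate block 0 subunits were called, and 2 in place of 8 had an unadjusted p under 0.05 in WT anti-CD40 against WT IgG. The share of all genes with such a p in that fit was not set beside this number. The lowest count of any subunit in a library was 374 reads, for Psmd10, and groups held 3 to 5 libraries.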
